A study of Mus musculus with 5 samples.

Results

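Retinoic acid is a signalling molecule that cells make from vitamin A, and 9 genes that carry, convert, bind or destroy it were followed here through the approach to embryo attachment in the mouse uterus. The 9 genes, Rbp4, Stra6, Rdh10, Dhrs3, Aldh1a1, Aldh1a2, Aldh1a3, Crabp2 and Cyp26a1, were chosen by name for their known roles, and each was matched to a single row of a table of 23420 genes.

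Wildtype C57BL/6N females were studied, with the day of the vaginal plug counted as day 1 of pregnancy. The luminal layer, the tissue lining the uterine cavity, was cut from frozen sections with a laser, and its total RNA was amplified with the SMART-seq v.4 kit and sequenced. There were 5 libraries, namely day 3 morning, day 4 morning, day 4 evening and, from the morning of day 5, separate libraries of tissue surrounding the attached embryo and of tissue lying away from it. The mice of day 5 had received Chicago blue in saline intravenously to show the implantation sites, and whether several mice were pooled in a library was not stated, though pooling is described for dissected tissue of other mice of the study. The day 5 libraries are called day 5 away and day 5 around below. Their short descriptions named the M pole for day 5 away and the AM pole for day 5 around, so distance from the embryo and the pole of the uterus cannot be told apart.

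Retinol, the alcohol form of vitamin A, travels in blood on the carrier protein Rbp4 and enters cells through the receptor Stra6. Inside the cell Rdh10 oxidises retinol to retinal, Dhrs3 reduces retinal back to retinol, and the dehydrogenases Aldh1a1, Aldh1a2 and Aldh1a3 oxidise retinal to retinoic acid in a step that is not reversed. Crabp2 delivers retinoic acid to its nuclear receptors, Cyp26a1 oxidises it to less active products, and in the uterus vitamin A is known to be needed for pregnancy.

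The libraries held 15334674, 19529491, 16560409, 16702914 and 19136032 counts on day 3 morning, day 4 morning, day 4 evening, day 5 away and day 5 around, and values below are given in this order. Counts were scaled to CPM (counts per 1000000 counts) after correction for composition by the trimmed mean of M values (TMM), a method that takes most genes as equal between libraries. A level per length, in CPM per kilobase of exon (RPKM), was used wherever different genes were compared. A gene was called higher or lower when its log2 CPM, computed with 2 counts added in proportion to library size, differed by more than 1, a fold of 2. Intervals, exact at 95%, and floors cover counting error only, and leave out differences between animals and copies made in amplification. With 1 library per condition no difference had a replicate check, and no p-value is given. In tissue of this kind, fewer cells of a type and less RNA per cell cannot be told apart.

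The filter on low values, a mean of at least 1 CPM across the libraries, kept 12915 of the 23420 genes and all 9 retinoid genes. Crabp2 passed it through day 3 morning alone and Rbp4 through day 5 around alone, so these genes had to differ between libraries. The counts of genes called below include them. None of the 9 genes had an exon overlapping that of another gene, on either strand, in the GENCODE annotation.

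On day 4 morning against day 3 morning, 0 of the 9 genes were called higher and 3 were called lower, against 7.47% and 11.5% of all 12915 genes. The genes called lower were Aldh1a1, Aldh1a3 and Crabp2, which were at 240.9, 69.0 and 23.0 CPM on day 3 morning. On day 4 evening against day 4 morning, 3 were called higher (Cyp26a1, Aldh1a3 and Rbp4) and 2 lower (Stra6 and Crabp2), against 7.21% and 6.95% of all genes. Of these, Aldh1a3, Rbp4 and Crabp2 had at most 16 counts in either library.

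On day 5 away against day 4 evening, 3 were called higher (Cyp26a1, Rbp4 and Crabp2) and 3 lower (Aldh1a1, Aldh1a3 and Stra6), against 12.9% and 12.7% of all genes. On day 5 around against day 4 evening, 5 were called higher (Cyp26a1, Aldh1a3, Rdh10, Stra6 and Rbp4) and 2 lower (Aldh1a1 and Dhrs3), against 19.1% and 20.7%. Around the embryo against away from it, 4 were called higher (Aldh1a3, Stra6, Rdh10 and Rbp4) and 2 lower (Crabp2 and Dhrs3), against 13.4% and 15.0%. Neighbouring comparisons share a library, day 4 evening being used in 3 of the 5, so their calls do not stand apart from each other.

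The median log2 difference of the 9 genes was -0.53, -0.77, -0.61, 2.32 and 0.98 over the 5 comparisons in the order above, and it was the same with genes at 0 set to their bound. The medians of all genes lay at 0.00, 0.00, 0.01, -0.02 and -0.05. Members went both ways in most comparisons, so these medians describe no common change of the 9 genes.

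**Figure D1:**
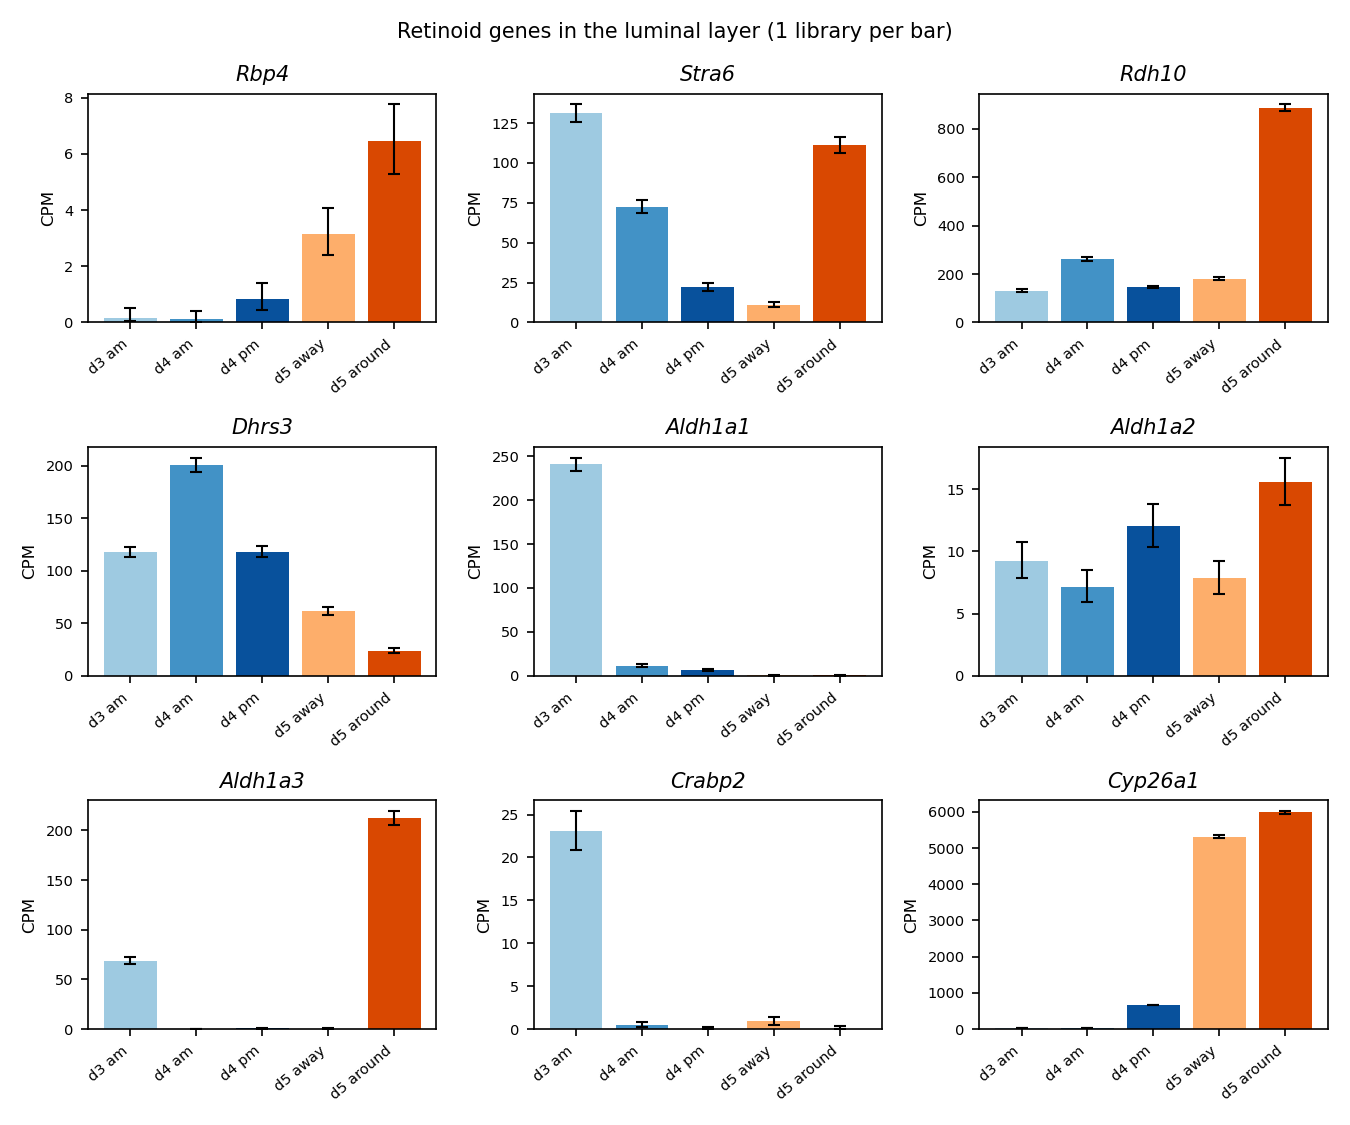
Level of each of the 9 retinoid genes in CPM (linear axis from 0) in the 5 libraries, 1 library per bar, with exact 95% intervals for counting error. Cyp26a1 climbed from 24.1 CPM on day 4 morning to 5985 CPM around the embryo, Aldh1a1 was high on day 3 morning alone, and Aldh1a3 was high on day 3 morning and around the embryo.

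Rbp4, the blood carrier of retinol, had few counts, 3, 2, 13, 59 and 111, or 0.173, 0.111, 0.822, 3.16 and 6.45 CPM. It was close to absent on the mornings of day 3 and day 4 and highest around the embryo. The ratio in CPM of day 4 evening to day 4 morning was 7.38 (1.67 to 67.4), resting on 13 and 2 counts. From day 4 evening Rbp4 rose 3.85-fold (2.09 to 7.65) away from the embryo and 7.84-fold (4.40 to 15.2) around it. Of all the Rbp4 calls, an exact test at a dispersion of 0.1 kept only that of day 5 around against day 4 evening.

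Around against away, the Rbp4 level was 2.04-fold higher (1.47 to 2.84), a log2 difference of 1.00 that lies on the line of the call. Per length it remained a minor transcript, at 4.97 RPKM where it was highest, and ranked 7352 among all genes there. Rbp4 lies at 38116620 to 38125321 on the minus strand of chromosome 19.

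Stra6, the receptor that takes up retinol from Rbp4, had 2279, 1305, 352, 206 and 1916 counts, or 131, 72.7, 22.2, 11.0 and 111 CPM. The level stepped down at each sampling from day 3 morning to day 5 away, and around the embryo it lay between those of day 3 and day 4 morning. Stra6 was 3.27-fold lower (2.90 to 3.68) on day 4 evening than that morning. Away from the embryo it was a further 2.01-fold lower (1.69 to 2.40), just past the fold used for a call. Neither of these falls was called by an exact test at a dispersion of 0.1.

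Around the embryo Stra6 was 5.00-fold higher (4.46 to 5.62) than on day 4 evening and 10.1-fold higher (8.72 to 11.7) than away from the embryo. The counting intervals of all 5 libraries lay apart, in the order day 3 morning, day 5 around, day 4 morning, day 4 evening and day 5 away. Genes of like pattern were sought among the 8841 genes whose mean reached 10 CPM, by the root mean square difference of log2 CPM over the 5 libraries after each gene's own mean was removed. Such likeness over 5 libraries says nothing of shared control. Closest to Stra6 were Wisp1 at 0.45, Tmsb10 at 0.55 and Bace2 at 0.55. Wisp1 had 731, 654, 66, 73 and 705 counts, low like Stra6 on day 4 evening and day 5 away. Stra6 lies on chromosome 9, 58129088 to 58153997, plus strand.

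Rdh10, which oxidises retinol to retinal, had 2279, 4688, 2315, 3350 and 15254 counts, or 131, 261, 146, 179.6 and 886 CPM. It was present in every library and stood out in the one from around the embryo. There Rdh10 was 6.05-fold higher (5.79 to 6.33) than on day 4 evening and 4.93-fold higher (4.75 to 5.12) than away from the embryo. The other differences were not called, and the nearest to the line was day 4 morning against day 3 morning with a log2 difference of 0.99 (0.92 to 1.07). Per length it reached 386 RPKM around the embryo, rank 176 of all genes, and there only Cyp26a1 among the 9 genes was above it. Rdh10 lies on chromosome 1, 16105882 to 16132550, plus strand.

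Dhrs3, which works in the opposite direction and returns retinal to retinol, had 2048, 3613, 1871, 1153 and 410 counts, or 118, 201, 118, 61.8 and 23.8 CPM. Its highest level was on day 4 morning and its lowest around the embryo, where Rdh10 was highest. Around the embryo Dhrs3 was 4.97-fold lower (4.46 to 5.54) than on day 4 evening and 2.60-fold lower (2.32 to 2.91) than away from the embryo. The second of these was not called by an exact test at a dispersion of 0.1. In CPM, day 3 morning and day 4 evening could not be told apart by their counting intervals. That likeness rests on the scaling, as Dhrs3 took 0.01336% of all counts on day 3 morning and 0.0113% on day 4 evening.

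The RPKM levels of Rdh10 and Dhrs3 lay side by side at 57.2 and 65.6 in the library of day 3, 114 and 112 on the morning of day 4, and 63.8 and 65.8 that evening. On day 5 they were 78.3 and 34.4 RPKM away from the embryo and 386 and 13.2 RPKM around it. The genes for the forward and the reverse step were thus at near equal levels per length up to day 4 evening, and parted on day 5, most widely around the embryo.

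Dhrs3 had the closest companions of any gene examined in this way, Add3 at a root mean square log2 difference of 0.06, Apbb3 at 0.11 and Zdhhc17 at 0.12. Add3, a protein of the membrane skeleton, had 2733, 4986, 2749, 1550 and 600 counts, with the peak on day 4 morning and the trough around the embryo that Dhrs3 showed. Dhrs3 lies on chromosome 4, 144892827 to 144927645, plus strand.

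The 3 dehydrogenase genes that complete the synthesis of retinoic acid had different patterns. Aldh1a1 had 4184, 209, 103, 7 and 11 counts, or 241, 11.6, 6.51, 0.375 and 0.639 CPM. It was high on day 3 morning alone and near the floor, set at 3 counts, in both day 5 libraries.

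Aldh1a1 was 20.7-fold lower (18.0 to 23.9) on day 4 morning than on day 3 morning. The evening of day 4 was not called against that morning, at a log2 difference of -0.83. By day 5 Aldh1a1 was 17.4-fold lower (8.12 to 44.2) away from the embryo and 10.2-fold lower (5.47 to 21.1) around it than on day 4 evening. The day 5 libraries did not differ beyond counting error, their ratio being 1.70 with an interval from 0.603 to 5.18.

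Reads of Aldh1a1 may be shared with Aldh1a7, a close copy of the gene, so its values are uncertain to that extent. Aldh1a7 had 242, 149, 66, 3 and 7 counts, far fewer than Aldh1a1 on day 3 morning and of like size on day 4. Closest in pattern to Aldh1a1 was Clca3 at a root mean square log2 difference of 0.61, with 900, 84, 13, 1 and 0 counts, followed by Ppp2r2b at 1.07 and Gpr128 at 1.13. Aldh1a1 lies on chromosome 19, 20601982 to 20643462, plus strand.

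Aldh1a2 had the narrowest range of the 9 genes, with 160, 128, 190, 146 and 268 counts, or 9.21, 7.13, 12.0, 7.83 and 15.6 CPM. It was not called in any of the 5 comparisons. The log2 difference closest to the line was 0.98 (0.70 to 1.29) for around against away, which was called higher when DESeq2 size factors were used. Its range over the 5 libraries, 1.11 on the log2 scale, was wider than that of 40.6% of the genes tested. In the order of its levels the counting intervals of each pair of neighbours overlapped. Aldh1a2 lies on chromosome 9, 71215789 to 71296243, plus strand.

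Aldh1a3 had 1199, 0, 16, 8 and 3660 counts, or 69.0, 0, 1.01, 0.429 and 213 CPM. It was plainly present on day 3 morning, absent or close to it in the 3 libraries that followed in time or lay away from the embryo, and highest around the embryo. The 0 counts of day 4 morning were set to the floor of 3 counts, 0.167 CPM. So set, Aldh1a3 was 413-fold lower there than on day 3 morning, and the limit of the counting interval was 335.6-fold. On day 4 evening it was 6.05-fold higher than that floor, with an interval limit of 4.38-fold.

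Around the embryo Aldh1a3 was 210.1-fold higher (129 to 368) than on day 4 evening and 495.5-fold higher (251 to 1149) than away from the embryo. These were the largest folds among the 9 genes in those comparisons. Day 5 away was called lower than day 4 evening, yet on 8 and 16 counts the ratio interval, 0.157 to 1.05, included no change. Compared with day 3 morning, the level around the embryo was higher in CPM, with counting intervals of 65.2 to 73.1 and 205.7 to 219.5 that lay apart. Aldh1a3 lies on chromosome 7, 66390893 to 66427477, minus strand.

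No gene followed Aldh1a3 closely, the nearest being Krt17, a keratin, at a root mean square log2 difference of 1.49, Slco2a1, a prostaglandin transporter, at 1.49 and Sprr1a at 1.60. Krt17 had 269, 3, 51, 31 and 11660 counts, Slco2a1 had 662, 4, 20, 22 and 635, and Sprr1a had 190, 2, 69, 12 and 2104. All of these shared the trough on day 4 morning and the high level around the embryo.

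Summed per length, the 3 dehydrogenase genes reached 143 RPKM on day 3, 8.88 on the morning and 8.81 on the evening of day 4, 3.77 in day 5 away and 69.7 in day 5 around. The sum was high on day 3 morning and around the embryo and low in the other libraries, day 5 away being the lowest, and the gene that made up most of it changed. On day 3 morning Aldh1a1 held 83.0% of the summed RPKM and Aldh1a3 held 14.2%. On day 4 morning Aldh1a1 held 64.5% and Aldh1a2 held 35.5%.

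By day 4 evening Aldh1a2 held the larger share, 60.2% of the summed RPKM, and away from the embryo on day 5 it held 91.8%. That rise in share came with a sum that had become small, since the RPKM of Aldh1a2 itself stayed between 3.15 and 6.87. Around the embryo Aldh1a3 held 89.7% of the sum and Aldh1a1 0.451%. A share of transcripts is not a share of enzyme activity, which was not measured.

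**Figure D2:**
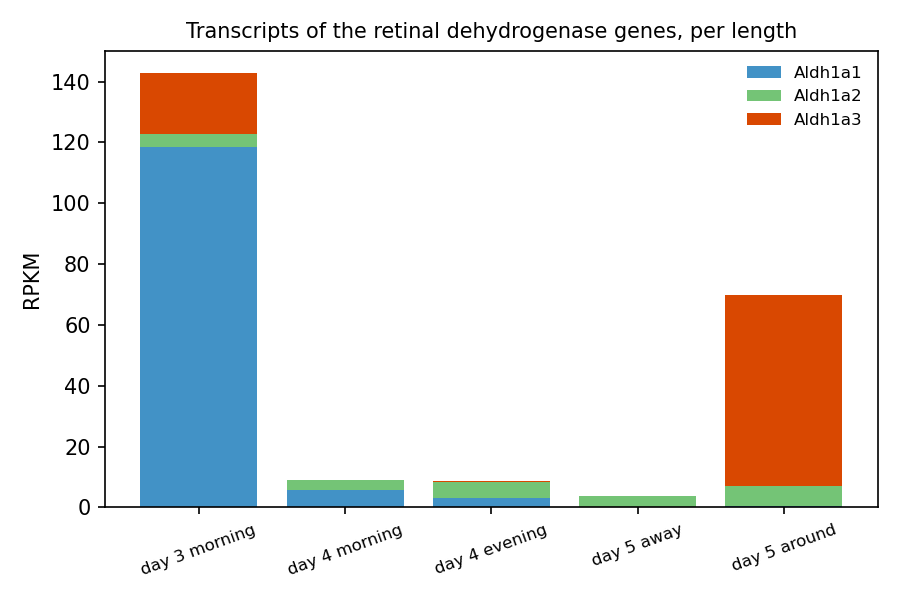
Stacked levels per length (RPKM, linear axis from 0) of Aldh1a1, Aldh1a2 and Aldh1a3 in the 5 libraries, 1 library per bar. The sum was 143 RPKM on day 3 morning, 8.88 RPKM on day 4 morning and 69.7 RPKM around the embryo, with Aldh1a1 the main part on day 3 and Aldh1a3 around the embryo.

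Crabp2, which binds retinoic acid in the cell and brings it to the nucleus, had 400, 8, 0, 17 and 1 counts, or 23.0, 0.445, 0, 0.911 and 0.0581 CPM. Only the library of day 3 morning held it in quantity. Crabp2 was 51.7-fold lower (26.0 to 120.6) on day 4 morning than on day 3 morning. The later calls rest on at most 17 counts.

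From 8 counts on day 4 morning to 0 that evening, set to the floor, Crabp2 was 2.35-fold lower. The limit of the counting interval was 1.504-fold, short of the fold used for a call. The 17 counts of day 5 away put it 4.81-fold above the evening floor, with an interval limit of 3.50-fold. Day 5 around, with 1 count, was 15.7-fold lower than day 5 away, with an interval from 2.46 to 656. No fold is given for day 5 around against day 4 evening, as both were under the floor. Crabp2 lies on chromosome 3, 87948693 to 87953372, plus strand.

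The widest swing in absolute level among the 9 genes belonged to Cyp26a1, the enzyme that breaks retinoic acid down. Its counts were 605, 432, 10542, 99164 and 103074, or 34.8, 24.1, 666, 5316 and 5985 CPM. Cyp26a1 was low on the mornings of day 3 and day 4, stood well above that by the evening of day 4, and was at its top in both day 5 libraries.

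Between the morning and the evening of day 4 the level of Cyp26a1 in CPM rose 27.7-fold (counting interval 25.2 to 30.6). From that evening to day 5 it rose a further 7.98-fold (7.82 to 8.14) in day 5 away and 8.98-fold (8.80 to 9.16) in day 5 around. Against day 4 morning, day 5 away was 221-fold higher (201.1 to 243.5) and day 5 around 249-fold higher (226 to 274). The day 5 libraries differed from each other far less, with a log2 difference of 0.17 (0.16 to 0.18). This was beyond counting error and under the fold used for a call. Day 4 morning against day 3 morning gave a log2 difference of -0.53, also not called. The direction between the day 5 libraries rests on the scaling, as Cyp26a1 took 0.594% of all counts in day 5 away and 0.539% in day 5 around.

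Ranked by RPKM among all 23420 genes, Cyp26a1 stood at 3308 and 4249 on the mornings of day 3 and day 4, at 170 on day 4 evening, and at 9 and 8 in day 5 away and day 5 around. It took 0.594% of all counts in day 5 away and 0.539% in day 5 around. The gene lay at chromosome 19, positions 37697808 to 37701536 on the plus strand of GRCm38/mm10, with 7 exon intervals and 1781 bases of exon.

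The gene closest to Cyp26a1 in pattern was Cldn10, a tight junction protein, at a root mean square log2 difference of 0.30, with counts of 51, 38, 1143, 9249 and 15981. Tll1, a secreted protease, followed at 0.65 and Arc at 0.69. All of these were near their lowest on day 4 morning and had their highest values on day 5.

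Receptors for retinoic acid are known to bind pairs of a short half-site set in the same direction, and the promoter of Cyp26a1 is shown because it is the gene with the widest change in absolute level. Promoter windows from RefSeq (GRCm38.p6), which run from 250 bases before to 50 bases after a gene's start, were searched on both strands for pairs of half-sites (AGGTCA or AGTTCA or GGGTCA or GGTTCA) spaced by 1, 2 or 5 bases. Windows were held for 6 of the 9 genes, with none for Rdh10, Aldh1a3 and Crabp2. A pair was found in 1 of the 6, Cyp26a1, and in 186 of all 27025 genes (0.688%), or 193 of all 32851 windows (0.588%), the 6 genes having 13 windows. The spacing in Cyp26a1 was 5 bases, which 31 of all genes held (0.115%).

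The pair lay on the minus strand at chr19:37697776-37697792, from 32 to 16 bases before the start, and reads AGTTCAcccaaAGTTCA on that strand. The 250 bases before the start, chr19:37697558-37697807 on the plus strand, are given 5′ to 3′ with the half-sites, as they read on the plus strand, in capitals.
Cyp26a1: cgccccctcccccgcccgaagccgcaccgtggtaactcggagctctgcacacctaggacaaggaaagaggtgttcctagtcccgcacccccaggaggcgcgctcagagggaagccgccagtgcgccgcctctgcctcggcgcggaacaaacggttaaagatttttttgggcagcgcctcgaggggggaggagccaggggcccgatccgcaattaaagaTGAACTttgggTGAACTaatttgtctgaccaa
This match is a description of the letters and no measurement of binding.

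Of the 55 other retinoid genes described below, 44 had a window and 2 of these held a pair, Rarb with a spacing of 5 and Bco1 with a spacing of 1. The pair of Rarb, a retinoic acid receptor, lay at chr14:16575513-16575529 on the minus strand and reads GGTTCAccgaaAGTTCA, with the half-sites in capitals. Rarb had 39, 17, 12, 15 and 10 counts.

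Cyp26a1 and Rbp4 share a stretch of chromosome 19, chosen for display after its values were seen. Over the 439642 bases from Cyp26c1, a related enzyme that ends 4500 bases before the start of Cyp26a1, to Rbp4, the table held 6 genes. These 6 include Cyp26a1 and Rbp4 themselves. On day 4 evening against day 4 morning 5 were called higher, beside 7.21% of all genes. On day 5 around against day 4 evening 6 were, beside 19.1%. The stretch was bounded by genes called higher in both comparisons, and Rbp4 passed the filter through day 5 around alone. These counts, and those that follow, therefore cannot be weighed against the shares of all genes. On day 4 morning against day 3 morning 0 were called higher and 3 lower (7.47% and 11.5% of all genes), in day 5 away against day 4 evening 5 and 0 (12.9% and 12.7%), and around against away 2 and 0 (13.4% and 15.0%). Cyp26c1 had 17, 36, 236, 713 and 564 counts, rising by a log2 difference of 2.83 on day 4 evening and by 1.35 from there to day 5 away. Between Cyp26a1 and Rbp4 lay Myof with 831, 318, 574, 1088 and 1849 counts, Cep55 with 844, 80, 26, 116 and 104, and the fatty acid receptor gene Ffar4 with 7, 0, 23, 66 and 414. Cep55 was the exception on day 4 evening, with a log2 difference of -1.38 against that morning.

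Across the 5 libraries the log2 range of CPM was 10.9 for Aldh1a3, 8.94 for Aldh1a1, 7.95 for Cyp26a1, 7.65 for Crabp2, 4.86 for Rbp4, 3.56 for Stra6, 3.07 for Dhrs3, 2.75 for Rdh10 and 1.11 for Aldh1a2. The median range of the 12915 genes tested was 1.36, with quartiles of 0.80 and 2.44. Hence 8 of the 9 genes ranged more widely than the upper quartile of all genes and Aldh1a2 less than their median. Both Crabp2 and Rbp4 had to range widely to pass the filter.

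Per length, the leading retinoid gene of the 9 was Aldh1a1 at 119 RPKM on day 3 morning, then Rdh10 at 114 RPKM a day later. Dhrs3, at 112 RPKM on day 4 morning, was near equal to Rdh10. Cyp26a1 led at 374, 2985 and 3360 RPKM in the libraries that followed. On day 3 morning 8 of the 9 genes stood above 4 RPKM, with Rbp4 at 0.133 RPKM below. On day 4 morning Cyp26a1 stood at 13.5 RPKM, and the sum of the 3 dehydrogenase genes at 8.88 RPKM was lower than that. By day 5 away the RPKM of Cyp26a1 was 2985 beside a dehydrogenase sum of 3.77, and around the embryo it was 3360 beside 69.7.

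Beside the 9 genes, 55 other genes of retinoid biology were listed by role, of which 54 were in the table, 39 passed the filter and 5 had no count in any library. Of the 39, 8 were called higher and 10 lower on day 4 morning against day 3 morning, 9 and 3 on day 4 evening against day 4 morning, 8 and 10 on day 5 away against day 4 evening, 16 and 11 on day 5 around against day 4 evening, and 11 and 8 around against away. The shares of all genes called higher and lower were, in that order, 7.47% and 11.5%, 7.21% and 6.95%, 12.9% and 12.7%, 19.1% and 20.7%, and 13.4% and 15.0%. Their median log2 differences were 0.13, 0.05, -0.06, 0.74 and 0.07, beside 2.32 for the 9 genes on day 5 around against day 4 evening. Of the 39, 6 passed the filter through their highest library alone, as did 912 of all 12915 genes, so these had to differ between libraries. In all, 19 had a mean of at least 10 CPM, and most of them are named below.

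Lrat, the enzyme that stores retinol as esters, had 6, 2, 844, 1960 and 8262 counts. It came up on day 4 evening, as Cyp26a1 did, with a log2 difference of 7.88 against that morning, and rose by 3.17 to day 5 around. Of the breakdown genes among the 55, Cyp26c1, given above, had a mean of at least 10 CPM. Lrp2, an endocytic receptor that can take up Rbp4, had 8608, 19086, 16302, 2054 and 252 counts and was lowest where Rbp4 and Stra6 were high, around the embryo.

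Among enzymes that convert retinol and retinal, Adh5 had 4660, 7481, 4826, 1489 and 519 counts and Dhrs4 had 1506, 2463, 1411, 607 and 188, both with the peak on day 4 morning and the trough around the embryo seen in Dhrs3. Dhrs7 had 782, 362, 262, 1775 and 2619 counts and was high on day 5. Rdh14 had 968, 1099, 1098, 861 and 495 counts and Rdh13 had 466, 504, 398, 559 and 826. Rdh9 had 229, 519, 365, 135 and 125 counts and Sdr16c6 had 139, 386, 376, 315 and 135. Within this role 4 of the 14 genes that passed the filter were called higher and 7 lower on day 5 around against day 4 evening, beside 19.1% and 20.7% of all genes.

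Of the receptors, Rara had 345, 451, 406, 239 and 175 counts, Rarg had 515, 410, 373, 483 and 863, and Rxra had 545, 789, 303, 861 and 655. Rxrb had 590, 920, 613, 688 and 523 counts and the related receptor gene Nr2f2 had 2539, 3051, 2358, 1916 and 1717. On day 5 around against day 4 evening Rarg and Ppard were called higher, at log2 differences of 1.08 and 2.30, and Rara and Nr2f1 lower, at -1.33 and -2.97. Ppard had 147 and 26 counts there and Nr2f1 had 3 and 34. Rxra was called lower on day 4 evening against that morning, at -1.19, and higher in day 5 away against day 4 evening, at 1.26.

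Genes known to be induced by retinoic acid in other tissues included Tgm2, with 609, 382, 500, 1171 and 6675 counts, Gprc5a, with 509, 211, 720, 280 and 2210, and Rai14, with 293, 27, 78, 138 and 344. All 3 were called higher around the embryo than away from it, with log2 differences of 2.62, 3.09 and 1.42, as Aldh1a3, Rdh10 and Stra6 were. Of the other tested genes of this role, Rarres1 was called higher there, having passed the filter through that library alone, Rarres2 was called lower at -3.39 on 2 and 43 counts, and Cd38 was not called at 0.29. That made 4 higher and 1 lower of 6, where 13.4% and 15.0% of all genes were called. In the earlier comparisons, in the order above, 1, 3, 0 and 3 of the 6 were called higher and 3, 0, 2 and 1 lower. The shares of all genes called higher were 7.47%, 7.21%, 12.9% and 19.1%, and those called lower 11.5%, 6.95%, 12.7% and 20.7%. Rarres1 was among those called lower on day 4 morning, higher on day 4 evening and lower in day 5 away.

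The dissected layer held epithelium, as all 8 epithelial marker genes had counts in every library, summing to 5706, 7034, 6270, 5363 and 8510 CPM, with Cldn3 the most abundant per length, or Cldn7 in day 5 around. Summed markers of some other cell types were highest around the embryo, while those of stroma and of blood and immune cells were lowest there. The part of these cell types in the results for Rbp4, Stra6, Rdh10, Aldh1a3 and the others was not tested.

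Trophectoderm and inner cell mass markers, 10 in number, summed to 5.07, 13.3, 8.09, 6.22 and 138 CPM, with 5, 5, 4, 4 and 9 of them counted. Plac1 was the most abundant per length around the embryo with 659 counts, Tfap2c away from it, and Elf5 before. Cdx2, Hand1, Pou5f1 and Nanog were at 0 outside day 5 around and had 22, 5, 68 and 10 counts there, while Prl3d1 was at 0 in all 5 and Sox2 on day 4 evening and in day 5 away. The 7 primitive endoderm markers summed to 1604, 2215, 2017, 826 and 2330 CPM, nearly all from Sox17, which had at least 14211 counts in every library. Among them Gata4 was at 0 until its 54 counts in day 5 around, and Apoa1 had 10 counts in day 5 away and 69 in day 5 around. Others of that list differed from Rbp4, as Sox7 had 612, 767, 1927, 901 and 322 counts and Dab2 had 257, 774, 1212, 261 and 362, both highest on day 4 evening. Gata6, with 6, 14, 0, 20 and 107 counts, was highest around the embryo as Rbp4 was, and Afp was at 0 in day 5 away with 1 count around the embryo.

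Smooth muscle markers, 5 in all, summed to 10.8, 18.9, 24.4, 31.6 and 392 CPM, led by Des with 6090 counts around the embryo, and Cnn1 was at 0 on day 4 morning. Decidual markers, with 4 in the table, summed to 39.0, 15.9, 7.90, 10.4 and 61.7 CPM, with Prl8a2 at 0 except for 86 counts around the embryo and Wnt4, Alpl, Bmp2, Bmp2 and Bmp2 the most abundant per length. The 5 endothelial markers summed to 12.0, 25.1, 30.0, 44.7 and 95.5 CPM, led per length by Tek in day 5 away, Cdh5 in day 5 around and Emcn before. The sums were highest in day 5 around, the library in which Stra6, Rdh10 and Aldh1a3 stood well above day 5 away, yet single endothelial markers went the other way. From day 5 away to day 5 around Tek went from 471 to 246 counts, Emcn from 79 to 27 and Kdr from 42 to 18, while Cdh5 went from 133 to 1229. Of the decidual markers, Bmp2 had 25, 46, 61, 140 and 720 counts, Wnt4 had 433, 61, 25, 48 and 228, and Alpl had 220, 178, 39, 6 and 28.

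The 11 stromal markers were counted in all libraries and summed to 619.9, 582, 675, 601 and 437 CPM, with Dcn, Vim, Vim, Dcn and Hand2 the most abundant per length. From day 5 away to day 5 around Dcn went from 1709 to 242 counts while Hand2 went from 389 to 2282. Blood and immune markers, 7 in number, summed to 228, 327, 299, 226 and 86.6 CPM, led by Lyz2, with Hba-a1 at 0 throughout and Cd3e on day 4 evening. Around the embryo Lyz2 had 708 counts against 3495 away from it, while Cd68 had 670 against 220. Gland markers, 6 in number, summed to 5.87, 6.01, 1.83, 4.13 and 31.2 CPM, with Foxa2 and Lif at 0 on day 4 evening. In day 5 away and day 5 around, Foxa2 had 2 and 21 counts, Lif 2 and 304, Prss28 21 and 44, and Prss29 35 and 74. Cyp26a1 was also highest around the embryo in CPM, though by share of all counts it was highest away from it. Lif made up 17.7 CPM of the gland sum around the embryo. It is known to be made by stroma around embryos once they have attached, so it marks more than glands. Prss28 and Prss29 were at 0 before day 5, Spink3 on day 3 and Il8, the table's name for Cxcl15, in day 5 away, and the most abundant per length was Il8, then Foxa2, and Spink3 from day 4 evening on.

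Scaling also bore on the counts of genes called. Scaled by library totals, all genes called higher and lower numbered 538 and 2209 on day 4 morning against day 3 morning in place of 965 and 1480, 2250 and 1264 on day 5 away against day 4 evening in place of 1669 and 1639, and 1288 and 2807 around against away in place of 1729 and 1932. With the rows of Rn45s and Lars2 left out of the totals, whose share of counts ran from 15.0% to 23.2%, they were 773 and 1877 on day 4 morning against day 3 morning and 1367 and 2788 around against away. Under these scalings every called direction of Cyp26a1, Aldh1a1, Rdh10, Dhrs3 and Crabp2 was kept, whereas Stra6 and Aldh1a3 were no longer called lower in day 5 away, Rbp4 was no longer called higher around against away, and Stra6 was called lower on day 4 morning.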

How the data were processed

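RNA from the luminal layer of 5 uterine samples, 1 per condition, was sequenced by the authors. Per the labels and the study's methods, the authors aligned reads to GRCm38/mm10 with HISAT2 and deposited a raw count per gene made with featureCounts (Subread 2.0.0), with the exon length of each gene. The annotation they used and the strand setting were not given in the sources used here. From the counts, TMM factors (1.13, 0.920, 0.955, 1.12 and 0.900) were computed with edgeR 4.0.16 in R 4.3.3, then CPM, RPKM, and log2 CPM with a prior count of 2. Genes averaging 1 CPM or more were tested. The steps were tested on simulated data with counting error only and few genes changed. That check does not cover differences between animals, amplification, or scaling when many genes change. The edgeR test of the study's methods needs a dispersion that 1 library per group cannot give, so the fold was kept as the call and an exact test at a fixed dispersion of 0.1 became an alternative. Other alternatives were DESeq2 1.42.0 size factors, library totals with and without Rn45s and Lars2, a prior count of 0.5, other filters, and a counting interval wholly beyond a fold of 2. Named were all 9 genes, other retinoid genes averaging 10 CPM or more apart from 1 that is not reported here, leading and absent markers, and the 3 genes most like each member with at least 10 CPM and a log2 range above 3. Rarb, Bco1, Aldh1a7, Myof, Cep55, Ffar4, Ppard, Nr2f1, Sox7, Dab2, Kdr, Cd68, Rarres1, Rarres2 and Cd38 were named after their values were seen. The members and lists were chosen with earlier results of these data known. The count of 3 used as a floor gave 0.161 to 0.190 CPM by library. Gene positions are those of the deposited table.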

Additional observations from a re-analysis of the deposited data

How the results depend on the processing

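The counts of genes called, for the 9 retinoid genes, the 39 other retinoid genes and all genes tested, were each compared under 8 alternatives, and a count was taken as moved when it changed by more than 1.5 times. For the 9 genes 69 of 80 values were within that limit, for the other retinoid genes 65 of 80, and for all genes 50 of 80. Of 180 log2 changes of single members under other scalings or another prior count none changed sign among those called, and 150 were within the main counting interval; of 45 levels per length, 25 were.

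With DESeq2 size factors 1 of the 9 genes, Rdh10, was called higher on day 4 morning, and Aldh1a2 was called higher around against away. With library totals, with or without Rn45s and Lars2, 1 was called lower in day 5 away, and with totals the other retinoid genes called higher on day 4 morning numbered 4 and all genes 538. Totals put the median log2 change of all genes at -0.28, 0.05, 0.23, -0.11 and -0.36 over the 5 comparisons, and at -0.14, 0.00, 0.14, -0.17 and -0.33 without Rn45s and Lars2.

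With no filter, all genes called higher and lower were 1686 and 2682 on day 4 morning, 1932 and 1653 on day 4 evening, and 2526 and 2623 in day 5 away; those called higher were 4029 in day 5 around and 3110 around against away. With a mean of at least 5 CPM, Crabp2 and Rbp4 were not tested: 1 of the 9 genes was lower on day 4 evening, 1 higher in day 5 away and 1 lower around against away. Other retinoid genes were then 5 higher on day 4 evening and 6 higher and 5 lower around against away, and all genes 566 and 872 on day 4 morning, 550 and 465 on day 4 evening and 1264 lower around against away. These filters change how many genes are tested.

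When the whole counting interval had to lie beyond a fold of 2, 1 of the 9 genes was lower on day 4 evening and 1 lower in day 5 away. Other retinoid genes were 4 higher and 5 lower on day 4 morning. All genes were 457 and 904 on day 4 morning, 499 and 401 on day 4 evening, 1070 higher in day 5 away and 1171 lower around against away. This rule is stricter by construction. Rbp4 was then not called on day 4 evening or around against away, nor Crabp2 on day 4 evening, nor Stra6 and Aldh1a3 in day 5 away.

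By the exact test of edgeR at a dispersion of 0.1, 0 of the 9 genes were lower on day 4 evening, 1 lower in day 5 away and 0 lower around against away. Calls lost were those of Rbp4 on day 4 evening, in day 5 away and around against away, Stra6 on day 4 evening and in day 5 away, Aldh1a3 in day 5 away, Crabp2 on day 4 evening and around against away, and Dhrs3 around against away. Other retinoid genes were 0 higher and 3 lower on day 4 morning, 4 and 0 on day 4 evening, 3 and 3 in day 5 away, 10 and 6 in day 5 around, and 4 lower around against away. All genes were 93 and 383 on day 4 morning, 158 and 83 on day 4 evening, 533 and 544 in day 5 away, 1310 and 1230 in day 5 around, and 795 and 605 around against away. Called under every alternative that tested them were the rise of Cyp26a1 on day 4 evening and day 5 and the higher Aldh1a3, Rdh10 and Stra6 around the embryo. The same held for the fall of Aldh1a1, Aldh1a3 and Crabp2 on day 4 morning. Against day 4 evening, it held for the lower Aldh1a1 in both day 5 libraries, and for the lower Dhrs3 and higher Rbp4 in day 5 around. It also held for the higher Aldh1a3 on day 4 evening and Crabp2 in day 5 away, which rest on at most 17 counts.

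Changes of Crabp2 after day 3 and of Rbp4 before day 5 rest on at most 17 counts, and no result has a replicate. No paired analysis was possible because each condition had a single library.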
